A study of Mus musculus with 12 samples.

Results

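Cell adhesion was described through 10 genes, which were followed in normal mouse pituitary and in the pituitary tumors of POMC KO mice: Cdh1, Cdh2, Cdh4, Cdh11, Cdh13, Epcam, Ncam1, L1cam, Ntm and Emb. They were read by the 29 probe sets whose platform annotation names 1 of these 10 genes and no other, of 45037 non-control probe sets and 18193 genes on the Affymetrix mouse genome array. The probe sets of these genes were taken by annotation alone, but the 10 genes were chosen with earlier results of these data known. A probe set is the group of short probes that reads 1 transcript region, and its value here is a log2 signal, so that a difference of 1 is a 2-fold difference.

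The 12 arrays came from pituitary tissue without drug treatment. The heterozygous group (8 arrays) was from POMC KO mice that keep 1 intact Pomc copy, the homozygous group (2 arrays) from mice with both copies knocked out, and the normal group (2 arrays) from normal pituitary. POMC is the precursor of ACTH and of alpha-MSH, made in corticotrophs and melanotrophs, and the tissue of both KO groups was spontaneously formed tumor. Age, sex and strain were not given for the arrays, and the study's methods speak of pooled normal pituitary without saying whether these 2 arrays were such pools. The tumor arrays fell into 5 near-identical pairs (r at least 0.997, and at most 4 probe sets over 2-fold apart), against 434 to 982 probe sets for any other 2 heterozygous arrays and 310 for the 2 normal arrays. Each pair differed by less than separate samples did and was counted as 1 sample, which left 2 normal samples, 4 heterozygous samples (arrays 1-2, 3-4, 5-6 and 7-8) and 1 homozygous sample. The homozygous group therefore had no replicate of its own, and its tests borrow the spread of the other groups. No source says that the samples were separate animals, so p-values measure the spread between these samples.

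The knocked-out gene bore out the homozygous label: Pomc was at 15.08 and 15.11 in the normal samples, 15.15 to 15.30 in the heterozygous samples and 7.18 in the homozygous sample. It did not show the loss of 1 copy, as the heterozygous samples were not below the normal ones (difference 0.16, not called). Xist, which is transcribed from the inactive X chromosome of females, was high in heterozygous samples 3-4 and 7-8 (10.93 and 11.25) and in the homozygous sample (11.2), and low in heterozygous samples 1-2 and 5-6 (4.58 and 5.0) and in the normal samples (5.07 and 4.57). Gh and Prl, the hormone genes of somatotrophs and lactotrophs, were at 13.32 or above in all 7 samples. The mean level of the 4 tested somatotroph and lactotroph markers was lower in tumors. It was 11.89 and 11.96 in the normal samples, 10.03 to 11.4 in the heterozygous samples and 10.83 in the homozygous sample. The mean level of 9 gonadotroph and thyrotroph markers was 10.31 and 10.34 in the normal samples, 5.94 to 7.52 in the heterozygous samples and 8.38 in the homozygous sample. The mean level of 11 macrophage markers was 6.8 and 7.06, 8.31 to 8.97, and 8.03, in the same order. In a bulk sample, fewer cells of a type and less RNA per cell cannot be told apart.

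Cadherins are calcium-dependent adhesion proteins. The classical ones bind the same kind of molecule on the neighbouring cell and hold to the actin skeleton through catenins, and endocrine cells of the pituitary carry both E-cadherin and N-cadherin. EpCAM is a calcium-independent adhesion protein of epithelia, NCAM, L1CAM and neurotrimin are adhesion molecules of the immunoglobulin superfamily, and embigin is an immunoglobulin-type glycoprotein that accompanies monocarboxylate transporters at the cell surface. Factors of the Snail family, Slug (Snai2) among them, are known to bind the sequence CAGGTG, a form of E-box, in the promoters of epithelial genes such as Cdh1.

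The RefSeq promoter table (GRCm38.p6) held 4 of the 10 genes. The sequences upstream of Emb, which fell most among the 10, of Epcam, which stayed high in all samples, and of Ntm, whose highest sample was the homozygous one, are printed 5′ to 3′ on the gene's own strand. Each is the 250 bases before an annotated start, and capitals mark CAGGTG or its reverse complement CACCTG. Ntm has 2 annotated starts on chromosome 9.
Emb, chr13:117220323-117220572, plus strand: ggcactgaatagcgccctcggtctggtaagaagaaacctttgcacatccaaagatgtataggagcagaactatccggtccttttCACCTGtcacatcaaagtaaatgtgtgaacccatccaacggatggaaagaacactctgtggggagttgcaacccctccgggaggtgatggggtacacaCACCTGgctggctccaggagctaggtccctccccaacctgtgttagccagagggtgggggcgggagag
Epcam, chr17:87635729-87635978, plus strand: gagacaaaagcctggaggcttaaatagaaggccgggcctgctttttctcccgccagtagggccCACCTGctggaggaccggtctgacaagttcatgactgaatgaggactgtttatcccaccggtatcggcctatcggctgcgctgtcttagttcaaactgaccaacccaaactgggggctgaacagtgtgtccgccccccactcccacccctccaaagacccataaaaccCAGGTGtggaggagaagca
Ntm, first start, chr9:29413453-29413702, minus strand: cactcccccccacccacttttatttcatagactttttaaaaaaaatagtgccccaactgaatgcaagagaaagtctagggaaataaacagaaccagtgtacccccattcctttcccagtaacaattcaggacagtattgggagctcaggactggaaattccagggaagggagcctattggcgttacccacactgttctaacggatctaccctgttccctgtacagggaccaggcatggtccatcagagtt
Ntm, second start, chr9:29412686-29412935, minus strand: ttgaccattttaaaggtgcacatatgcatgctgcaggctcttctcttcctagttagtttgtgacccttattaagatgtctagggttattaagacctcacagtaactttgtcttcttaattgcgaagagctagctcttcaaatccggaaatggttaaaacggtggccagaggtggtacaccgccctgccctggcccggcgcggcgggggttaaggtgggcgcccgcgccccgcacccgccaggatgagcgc
Emb held 2 of these E-boxes, 166 and 68 bases upstream of its start, and Epcam held 2, at 187 and 19 bases. Neither Ntm window nor the 2 L1cam entries held one. Of 32851 promoter windows of the same length in the table, 17.2% held at least 1 and 2.06% held 2 or more. The GC box GGGCGG, searched on both strands (CCGCCC on the other), was present in the Emb and Epcam windows, in the second Ntm window and in both L1cam entries, against 32.7% of all windows. These are matches of letters in short windows, and binding was not measured.

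**Figure D1:**
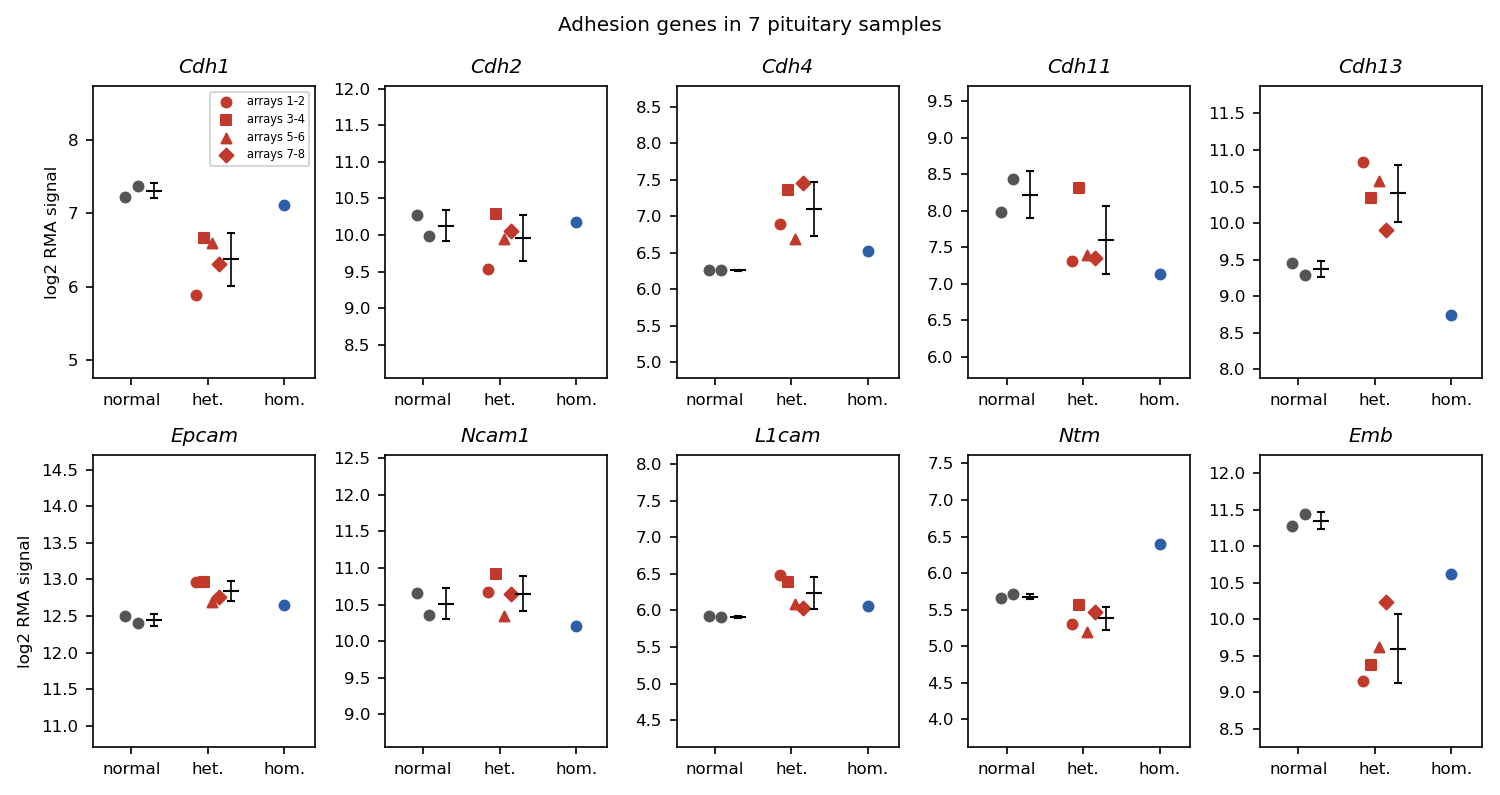
Log2 RMA signal (y axis) of the probe set that stands for each of the 10 genes, in the 2 normal samples (grey), the 4 heterozygous tumor samples (red, 1 symbol per array pair) and the homozygous tumor sample (blue); the bar beside a group is its mean ± SD. All panels span the same number of log2 units. Emb sits lowest in the 4 heterozygous samples (9.16 to 10.24, against 11.27 and 11.44 in normal pituitary), and Cdh13 sits highest there (9.91 to 10.83, against 9.45 and 9.29).

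Emb and Cdh13 were the only 2 of the 10 genes that passed the test in heterozygous tumors, Emb lower and Cdh13 higher. A gene was called at an adjusted p under 0.05 and a fold over 2 (limma, Benjamini-Hochberg over all 24486 tested probe sets), with the tested probe set of highest mean standing for it. Of all 12316 genes tested, 10.1% were called in this comparison (5.53% higher and 4.55% lower), so 2 of 10 is a count near what the array gave throughout. By probe set, 3 of 21 were called higher and 2 lower, against 8.68% of all in either direction. With the adjusted p alone, at any fold, 4 of the 10 passed (Cdh1, Cdh4, Cdh13 and Emb), against 24.2% of all genes. None of the 10 was called between homozygous tumor and normal pituitary, where 2.74% of all genes were, nor between the tumor genotypes, where 0.292% were. At an unadjusted p under 0.05 in limma, 2 of the 10 passed against normal (Cdh11 and Ntm), where 19.2% of all genes did, and 4 between the genotypes (Cdh1, Cdh13, Ntm and Emb), where 10.6% did. By the one-way test of the study's methods on 12 separate arrays 0 and 3 were called. That test counts the arrays of a near-identical pair as separate samples, and it called more of all genes than limma in both comparisons. Its totals over all genes are given with the other alternatives at the end. The median log2 fold change of the 10 was -0.02, -0.07 and -0.19 in heterozygous minus normal, homozygous minus normal and homozygous minus heterozygous, and their median absolute change was 0.51, 0.28 and 0.52, against 0.26, 0.23 and 0.15 over all genes.

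Of the 29 probe sets, 21 passed the filter on low values (a value of 5.74, the median over the whole table, reached on at least 2 arrays). The 8 that did not lay between 2.96 and 5.3 on every array. They were 3 of Ncam1 and 1 each of Cdh4, Cdh11, Cdh13, L1cam and Emb, and each of these genes had another probe set that passed. The 3 Ntm probe sets passed through the 2 homozygous arrays alone, so that they entered the test by being high there. The heterozygous and normal samples did not overlap for 7 of the 10 genes. Cdh4, Cdh13, Epcam and L1cam were higher in all 4 heterozygous samples than in both normal samples, and Cdh1, Ntm and Emb were lower. Over all genes, 51% did not overlap, with 25.3% higher and 25.7% lower. The 2 arrays of a tumor pair differed by a median of 0.08 on the tested member probe sets and by at most 0.69.

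**Figure D2:**
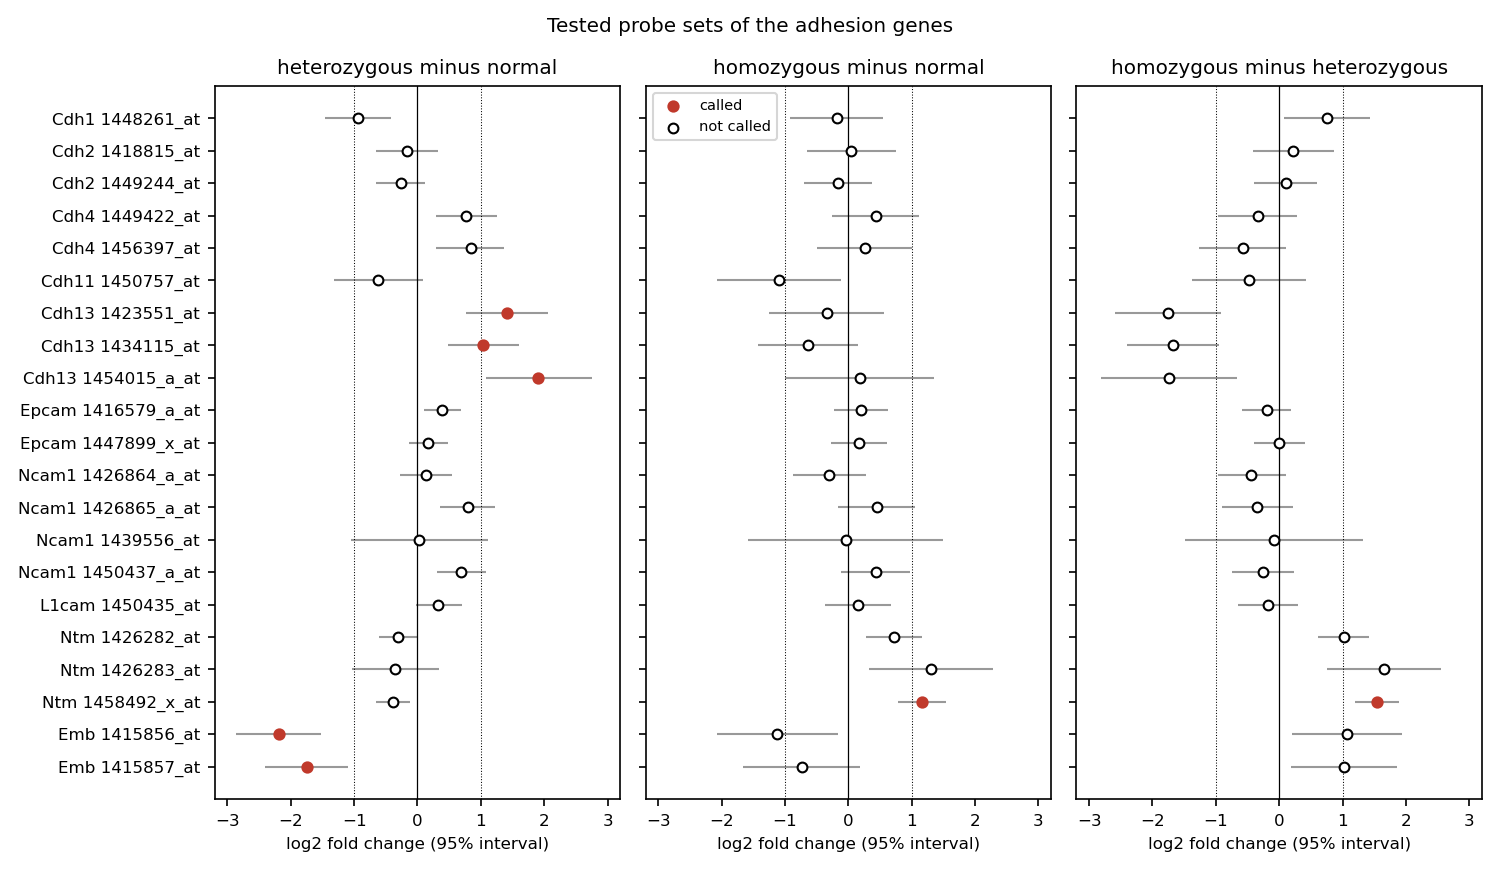
Log2 fold changes (x axis) of the 21 tested probe sets in the 3 comparisons, with 95% intervals from the limma fit; filled red points were called, and dotted lines mark a 2-fold difference. Both Emb and all 3 tested Cdh13 probe sets were called in heterozygous minus normal, and 1 Ntm probe set was called in both comparisons of the homozygous tumor.

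Cdh1 encodes E-cadherin, the classical cadherin of epithelia. Its log2 signal was 7.23 and 7.38 in the normal samples, 5.89, 6.67, 6.60 and 6.31 in heterozygous samples 1-2, 3-4, 5-6 and 7-8, and 7.12 in the homozygous sample. All heterozygous samples lay below both normal samples, and the homozygous sample lay just under the normal ones. The mean was 7.31 ± 0.10 (SD, n = 2) in normal pituitary and 6.37 ± 0.36 (n = 4) in heterozygous tumors, a log2 fold change of -0.94 (SE 0.22, limma adjusted p = 0.0234). That is 1.91-fold and under the 2-fold threshold, so Cdh1 was not called. It was called without sample 3-4 (-1.04), without sample 5-6 (-1.02) and without the 2 heterozygous samples of high Xist (-1.06). Without normal sample 1 (-1.01, adjusted p = 0.103) or 2 (-0.86, 0.134) its adjusted p also missed the threshold. The homozygous sample differed from normal by -0.18 (95% interval -0.92 to 0.55) and from the heterozygous samples by 0.75 (0.08 to 1.43, adjusted p = 0.476).

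Cdh2 encodes N-cadherin, the classical cadherin of neural and endocrine tissue. It stood at 10.28 and 9.98 in normal pituitary, 9.54, 10.29, 9.94 and 10.06 in the heterozygous samples and 10.18 in the homozygous sample, and the groups overlapped. Heterozygous minus normal was -0.17 (95% interval -0.66 to 0.32, adjusted p = 0.596), which leaves room for a loss of up to 0.66 and a gain of up to 0.32 on the log2 scale. Its other probe set gave -0.26 (-0.65 to 0.12). Heterozygous sample 1-2 had the lowest value in both probe sets. E-cadherin and N-cadherin thus differed in their result, but the difference between these genes was not tested.

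Cdh4 encodes R-cadherin, a classical cadherin first known from the retina. Both tested probe sets were higher in the 4 heterozygous samples. The one of higher mean went from 6.26 and 6.27 in normal pituitary to 6.90, 7.36, 6.69 and 7.46, with 6.53 in the homozygous sample. The change was 0.84 (SE 0.23, adjusted p = 0.0374), a 1.79-fold difference, and 0.77 (SE 0.21, adjusted p = 0.0349) in the other probe set, both under the fold threshold. The 2 heterozygous samples of high Xist held the 2 highest values in each probe set, and without the 2 of low Xist the change was 1.15 and passed (adjusted p = 0.00486). Without the 2 of high Xist it was 0.53 (adjusted p = 0.0638), and with Xist as a covariate 0.53 (0.0366). Without normal sample 1 or 2 the adjusted p was 0.169 or 0.151.

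Cdh11 encodes OB-cadherin, found mainly in mesenchymal cells and bone. Its values were 7.99 and 8.44 in normal pituitary, 7.32, 8.31, 7.40 and 7.36 in the heterozygous samples and 7.13 in the homozygous sample. Sample 3-4 stood apart at a level within the normal range, and the other 3 heterozygous samples lay below both normal ones. Heterozygous minus normal was -0.62 (SE 0.30, adjusted p = 0.176) and homozygous minus normal -1.09 (SE 0.42, adjusted p = 0.232), neither of them called. Across 11 tested markers of stroma and pericytes, sample 3-4 also had the highest mean level of the 7 samples (9.1), against 8.28 to 8.43 in the other heterozygous samples, 8.24 in the homozygous sample and 8.67 and 8.81 in normal pituitary. Of these 11, 1 was called higher and 3 lower in heterozygous tumors, where 10.1% of all genes were called. In the homozygous tumor 1 was called higher, where 2.74% of all genes were called. The part of these markers in the Cdh11 values was not tested.

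Cdh13 encodes T-cadherin, which has no cytoplasmic tail, is held in the membrane by a lipid (GPI) anchor and binds adiponectin. In the probe set of highest mean it was at 9.45 and 9.29 in normal pituitary, 10.83, 10.34, 10.57 and 9.91 in heterozygous samples 1-2, 3-4, 5-6 and 7-8, and 8.74 in the homozygous sample. Every heterozygous sample was above both normal samples, and the homozygous sample was below all others. The mean rose from 9.37 ± 0.11 (n = 2) to 10.41 ± 0.39 (n = 4), by 1.04 (SE 0.24, adjusted p = 0.0209), or 2.06-fold. The other tested probe sets rose by 1.42 (SE 0.28, adjusted p = 0.0112) and by 1.91 (SE 0.36, adjusted p = 0.00951). In the last, the normal samples lay far apart, at 5.86 and 7.00.

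The Cdh13 call depended on single samples. In the probe set of highest mean, the change was 1.12 without normal sample 1 (adjusted p = 0.0955), 0.96 without normal sample 2 (0.125), 0.90 without heterozygous sample 1-2 and 0.99 without sample 5-6, and none of these was called. It was 0.76 without the 2 heterozygous samples of low Xist, again not called. All 3 probe sets had the same direction under each of these alternatives. In the second probe set the call was lost without either normal sample (1.5, adjusted p = 0.0677, and 1.34, adjusted p = 0.0816), and in the third without normal sample 1 (1.34, adjusted p = 0.068).

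Between the tumor genotypes, Cdh13 had the largest difference in size of the 10 genes. The homozygous sample was 1.68 lower on the log2 scale than the heterozygous mean (log2 fold change -1.68, SE 0.31, 95% interval -2.40 to -0.95), a 3.2-fold difference that was not called (adjusted p = 0.141). The other probe sets gave -1.76 (adjusted p = 0.174) and -1.74 (adjusted p = 0.284). Without heterozygous sample 7-8, whose Cdh13 level was the lowest of the 4, the difference was -1.84 and passed (adjusted p = 0.0177), and without the 2 heterozygous samples of high Xist it was -1.96 and passed (adjusted p = 0.0137). Against normal pituitary, the homozygous sample differed by -0.64 (SE 0.34, adjusted p = 0.377), -0.34 and 0.18 in the 3 probe sets, so that the sign was not shared among them. The tested genes whose pattern over the 7 samples was most like that of Cdh13 were Rps6ka6 (Pearson r = 0.989), a ribosomal S6 kinase, and Plcd3 (r = 0.986), a phospholipase C, neither of which was called.

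Epcam had 2 probe sets, read at 12.50 and 12.40 in normal pituitary, 12.96, 12.96, 12.69 and 12.76 in the heterozygous samples and 12.65 in the homozygous sample by the one of higher mean. All 7 samples lay within a narrow band, with the 4 heterozygous ones above both normal ones. The difference was 0.39 (95% interval 0.10 to 0.69, adjusted p = 0.0646), and 0.17 (-0.14 to 0.48) in the other probe set, whose suffix (x_at) marks probes that may also match other sequences. The intervals leave no room for a 2-fold change in either. Homozygous minus normal was 0.20 (-0.22 to 0.62).

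Ncam1, the neural cell adhesion molecule that neuroendocrine cells also carry, had 4 tested probe sets, and they did not give 1 answer. The one of highest mean overlapped between the groups, at 10.66 and 10.36 in normal pituitary, 10.67, 10.92, 10.35 and 10.65 in the heterozygous samples and 10.21 in the homozygous sample (heterozygous minus normal 0.14, SE 0.18, adjusted p = 0.611). A second went from 9.58 and 9.16 to between 9.95 and 10.43, by 0.80 (SE 0.19, adjusted p = 0.0219), and another from 7.24 and 6.73 to 7.55, 7.64, 7.70 and 7.83, by 0.69 (SE 0.16, adjusted p = 0.0233). In both of these all heterozygous samples lay above both normal samples, and neither reached 2-fold. Without normal sample 1 the second was called (adjusted p = 0.0477), and without normal sample 2 it gave 0.59 (0.152). The fourth had a wide interval (0.03, 95% interval -1.05 to 1.12), with heterozygous sample 5-6 far below the rest at 5.33. NCAM is spliced into several isoforms, and which isoform each probe set reads was not examined.

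L1cam, a neural adhesion molecule on the X chromosome that takes part in axon growth and cell migration, was at 5.92 and 5.91 in normal pituitary, 6.48, 6.39, 6.09 and 6.03 in the heterozygous samples and 6.06 in the homozygous sample. All tumor samples were higher than both normal ones, by little. The difference was 0.33 in heterozygous tumors (95% interval -0.03 to 0.70, adjusted p = 0.17) and 0.15 in the homozygous tumor (-0.37 to 0.67). These levels are near the filter's threshold of 5.74.

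Ntm encodes neurotrimin, a GPI-anchored molecule of the IgLON family of neural adhesion molecules. In all 3 probe sets the homozygous sample was the highest of the 7. The probe set of highest mean read 5.66 and 5.71 in normal pituitary, 5.31, 5.56, 5.20 and 5.47 in the heterozygous samples and 6.40 in the homozygous sample. A second read 5.13 and 5.02, then 4.92, 4.75, 4.03 and 5.21, then 6.38. The third, again of the x_at kind, read 5.47 and 5.62, then 5.15, 5.26, 5.06 and 5.20, then 6.71.

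The x_at probe set was the only tested member probe set called in either comparison of the homozygous tumor, where 2.33% of all probe sets were called against normal and 0.249% against heterozygous tumors. It was higher by 1.16 than normal (SE 0.16, adjusted p = 0.0191, 2.24-fold) and by 1.54 than heterozygous tumors (SE 0.15, adjusted p = 0.00957, 2.92-fold). Since this probe set entered the test through the homozygous arrays, the same differences were taken from the fit with no filter on low values, where the adjusted p was 0.0153 and 0.00719. The other 2 were higher by 0.72 and 1.30 against normal (adjusted p = 0.0976 and 0.162) and by 1.02 and 1.65 against heterozygous tumors (0.107 and 0.22), and were not called. When the mean of the 3 probe sets stood for the gene, Ntm was called in both, by 1.06 (adjusted p = 0.0457) and 1.40 (0.0475). That fit kept the filter, and all 3 probe sets had entered by being high in the homozygous arrays. The gene mean is thus no separate evidence for the difference. The x_at probe set was called in neither comparison when the 12 arrays were fitted with the pair as a random block (adjusted p = 0.266 against normal and 0.184 against heterozygous tumors). It was not called against normal without normal sample 1 (1.09, adjusted p = 0.0905) or 2 (1.23, 0.0713) or with Xist as a covariate (1.05, 0.0649), nor against heterozygous tumors without the 2 of low Xist (1.48, 0.0633). All of this rests on 1 homozygous sample, whose 2 arrays read 6.45 and 6.96 in the x_at probe set. In the same probe set the arrays of heterozygous sample 1-2 read 4.8 and 5.49. That gap of 0.69 was the largest within a pair among the tested member probe sets.

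**Figure D3:**
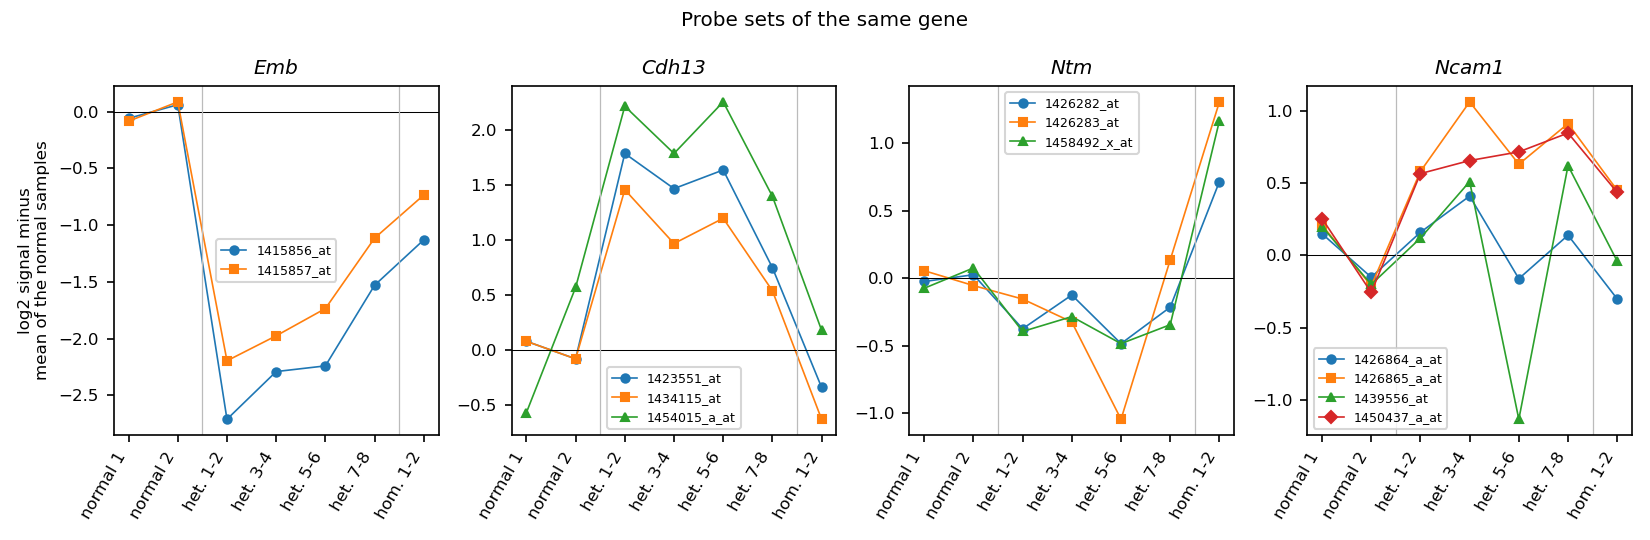
Tested probe sets of Emb, Cdh13, Ntm and Ncam1 in the 7 samples, each as log2 signal minus its own mean in the 2 normal samples (y axis); lines only join the values of 1 probe set, and vertical lines part the groups. The Emb probe sets lie below 0 in every tumor sample, those of Cdh13 above 0 in every heterozygous sample, and those of Ntm highest in the homozygous sample, while those of Ncam1 part, most at heterozygous sample 5-6.

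Emb encodes embigin, which belongs with basigin and neuroplastin and accompanies the lactate and pyruvate transporter MCT2 to the membrane. In the probe set of higher mean it was at 11.27 and 11.44 in normal pituitary, 9.16, 9.38, 9.62 and 10.24 in heterozygous samples 1-2, 3-4, 5-6 and 7-8, and 10.62 in the homozygous sample. All tumor samples lay below both normal samples, and the homozygous sample lay between the 2 other groups. The mean fell from 11.35 ± 0.12 (n = 2) to 9.60 ± 0.47 (n = 4), a log2 fold change of -1.75 (SE 0.28, 95% interval -2.40 to -1.10, adjusted p = 0.00515), or 3.37-fold. The other probe set went from 11.06 and 11.18 to 8.41, 8.83, 8.88 and 9.59, by -2.19 (SE 0.29, adjusted p = 0.00244), or 4.57-fold. Emb was called lower in heterozygous tumors under all 19 alternatives, in values from -1.54 to -2.19 for the first probe set.

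In the homozygous tumor, Emb was lower than in normal pituitary by a log2 fold change of -0.73 (95% interval -1.66 to 0.19, adjusted p = 0.382) in the first probe set and -1.12 (SE 0.41, adjusted p = 0.206) in the other, and was not called in either. The homozygous sample was 1.02 above the heterozygous mean (0.18 to 1.86, adjusted p = 0.434), also not called. The 2 tumor genotypes were thus not shown to differ in Emb.

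The order of the 7 samples by Emb was also their order by the mean level of the 9 gonadotroph and thyrotroph markers: 5.94, 6.38, 7.19 and 7.52 in heterozygous samples 1-2, 3-4, 5-6 and 7-8, 8.38 in the homozygous sample and 10.31 and 10.34 in the normal samples. Of these 9 markers, heterozygous tumors had 8 called lower, as were 4.55% of all genes. The homozygous tumor had 3 called lower, where 2.74% of all genes were called in either direction. Cga, the shared subunit of their hormones, ran from 10.98 in sample 1-2 to 13.87 in sample 7-8 and was at 14.3 in the homozygous sample. The part of these cells in the Emb values was not tested. Markers of folliculostellate cells, pituicytes and glia, and those of the marginal zone and progenitors, also had lower mean levels in every tumor sample. Their order of the samples was another one, and macrophage markers were higher in every tumor sample. The genes most like Emb across the 7 samples were Chpt1 (r = 0.997), an enzyme of phosphatidylcholine synthesis, and Elmod1 (r = 0.995), and both were called lower in heterozygous tumors. Both had the same order of the 7 samples as Emb, and so did Cdh26 and Grhl2, described below. The order was thus not particular to Emb, and the share of all genes with it was not counted.

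Among the 10 genes themselves, over the same 7 samples, Emb ran against Epcam (r = -0.93) and L1cam (-0.89) and with Cdh1 (0.85), and Cdh13 ran against Ntm (-0.89). These values describe 7 samples that fall into 3 groups, so they mostly restate which group was higher.

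The lists that follow hold other genes of junctions and adhesion, and both tumor genotypes are set against the same 2 normal samples. The other cadherins moved in both directions in heterozygous tumors. Of 15 on the array 6 passed the filter, and 2 rose and 2 fell, where 10.1% of all genes were called. Their median log2 fold change was -0.20, against about 0 over all genes. Cdh10, a neural type II cadherin, was at 5.33 and 5.70 in normal pituitary, 7.44 to 7.72 in the heterozygous samples and 7.80 in the homozygous sample. It rose by 2.09 in heterozygous tumors (SE 0.15, adjusted p = 0.000315) and by 2.29 in the homozygous tumor (SE 0.21, adjusted p = 0.00614). It passed the filter through the 10 tumor arrays alone, so that it entered the test by being high there. The same holds for Cntn4 and Tgfb1 below, and for Slc16a3 through the heterozygous arrays. Cdh22, another type II cadherin, rose by 1.85 in heterozygous tumors (adjusted p = 0.00834), while Cdh26 and Cdh7 fell by 1.74 (adjusted p = 0.0052) and 1.42 (adjusted p = 0.00962). Cdh7 passed the filter through the normal and homozygous arrays alone. None of these 3 was called in the homozygous tumor, where Cdh10 alone of the 6 was, against 2.74% of all genes.

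Catenins and their partners join cadherins to the cell skeleton. Of 15 tested catenins and junction adaptors 0 rose and 2 fell in heterozygous tumors, and 0 were called in the homozygous tumor (8 at an unadjusted p under 0.05 in limma), with medians of -0.44 and -0.43. The called counts lie near the shares of all genes called in the same comparisons, 10.1% and 2.74%. At an unadjusted p under 0.05 in limma, 19.2% of all genes passed in homozygous minus normal, a lower share than 8 of 15. The medians over all genes were -0.0009 and -0.0291, so this list sat lower than the array as a whole in both comparisons. Plekha7, which links p120-catenin to microtubules, fell by 1.61 (adjusted p = 0.00272) and Magi1, a junction scaffold, by 1.11 (adjusted p = 0.00204). Ctnnb1 and Ctnna1, beta-catenin and alpha-catenin, gave -0.19 and -0.44 in heterozygous tumors and were not called. Of 9 tested desmosomal genes, 1 fell in heterozygous tumors, Perp (-1.61, adjusted p = 0.00413), and 0 were called in the homozygous tumor (2 at an unadjusted p under 0.05 in limma). These desmosomal counts lie near the shares of all genes, 10.1%, 2.74% and, at the unadjusted p, 19.2%.

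Of 23 tested genes of epithelial junctions and identity, 1 rose and 3 fell in heterozygous tumors, and 2 fell in the homozygous tumor. The shares of all genes called there were 10.1% and 2.74%. Cldn7, a claudin known to bind EpCAM, was at 7.66 and 8.09 in normal pituitary, 5.59 to 5.73 in the heterozygous samples and 6.44 in the homozygous sample. It fell by 2.22 (SE 0.14, adjusted p = 0.000281) and by 1.44 (SE 0.20, adjusted p = 0.02), while Epcam itself gave 0.39 and 0.20 and was not called. Grhl2, a transcription factor of epithelia that activates Cdh1, fell by 1.19 (adjusted p = 0.00202) in heterozygous tumors, Cldn9 fell by 1.11 (adjusted p = 0.00404), and the keratin gene Krt7 rose by 1.25 (adjusted p = 0.00218).

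Of 7 tested factors and genes of epithelial-mesenchymal transition, 3 rose and 1 fell in heterozygous tumors and 1 rose in the homozygous tumor (medians 0.96 and 0.33). The shares of all genes called there were 10.1% and 2.74%. Snai2 rose in both genotypes. It was at 6.48 and 7.00 in normal pituitary, 9.15 to 9.56 in the heterozygous samples and 8.91 in the homozygous sample, a change of 2.59 (SE 0.19, adjusted p = 0.000331) and 2.17 (SE 0.26, adjusted p = 0.0128). Fn1, fibronectin, rose by 2.76 in heterozygous tumors (SE 0.53, adjusted p = 0.0103), with 10.13, 10.45, 9.53 and 8.43 in samples 1-2 to 7-8, and was at 7.14 in the homozygous sample, between the 2 normal values of 6.52 and 7.23. Tgfb1 rose by 1.37 (adjusted p = 0.0139) and Tgfb2 fell by 1.17 (adjusted p = 0.0191) in heterozygous tumors. Tgfb1 passed the filter through the tumor arrays alone, and Tgfb2 through the normal and homozygous arrays alone. Macrophages also make Tgfb1. Of the 11 tested macrophage markers, 8 were called above normal in heterozygous tumors, as were 5.53% of all genes. In the homozygous tumor 2 were, where 2.74% of all genes were called in either direction. Their part in this list was not tested. Cdh1, a known target of Slug, was lower in heterozygous tumors without passing 2-fold. In the homozygous sample, where Snai2 was also higher, Cdh1 differed from normal by -0.18. A link between Snai2 and Cdh1 was not tested.

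Of 19 tested neural immunoglobulin adhesion molecules, 2 rose and 5 fell in heterozygous tumors, and 1 rose in the homozygous tumor. The shares of all genes called there were 10.1% and 2.74%. Cntn4, contactin 4, rose in both, by 1.83 (adjusted p = 0.000432) and 1.44 (adjusted p = 0.02), and passed the filter through the 10 tumor arrays alone. Cntn1 fell by 1.46 (adjusted p = 0.00501), Lsamp by 1.37 (adjusted p = 0.000854) and Chl1 by 1.37 (adjusted p = 0.00629) in heterozygous tumors. Lsamp belongs to the IgLON family with Ntm, and it passed the filter through the normal and homozygous arrays alone. It was at 6.02 and 6.34 in normal pituitary, 4.70 to 4.93 in the heterozygous samples and 5.82 in the homozygous sample. The homozygous sample was above all heterozygous ones, as for Ntm, but below both normal samples, unlike Ntm. The other tested IgLON genes, Negr1 and Iglon5, had homozygous values of 9.51 and 6.59, within their heterozygous ranges of 8.97 to 9.56 and 6.41 to 6.83. The Lsamp difference between the genotypes, 1.01, was not called (adjusted p = 0.12).

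Among 13 tested binding partners and modifiers of the 10 genes, 2 rose and 1 fell in heterozygous tumors, and 1 rose and 1 fell in the homozygous tumor. The shares of all genes called there were 10.1% and 2.74%. St8sia4, a sialyltransferase that adds polysialic acid to NCAM, rose from 6.18 and 6.28 in normal pituitary to 7.93 to 8.20 in the heterozygous samples and 7.52 in the homozygous sample. The change was 1.78 (SE 0.12, adjusted p = 0.000317) and 1.29 (SE 0.18, adjusted p = 0.0183). The one that fell in both genotypes was Cldn7. Slc16a3, the lactate transporter MCT4, which basigin accompanies, rose by 2.18 in heterozygous tumors (adjusted p = 0.00775) and passed the filter through the 8 heterozygous arrays alone. Slc16a7, which encodes MCT2, the transporter that embigin accompanies, was at 5.60 and 5.62 in normal pituitary, 6.04 to 6.64 in the heterozygous samples and 6.39 in the homozygous sample. All tumor samples were above both normal ones, and the heterozygous difference of 0.75 (SE 0.17, adjusted p = 0.0198) stayed under 2-fold and was not called. Bsg, which encodes basigin, gave 0.34 (adjusted p = 0.137). Between the tumor genotypes, limma called 0 of the 91 tested genes of these 7 lists, and 23 had an unadjusted p under 0.05, which 10.6% of all genes had.

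**Figure D4:**
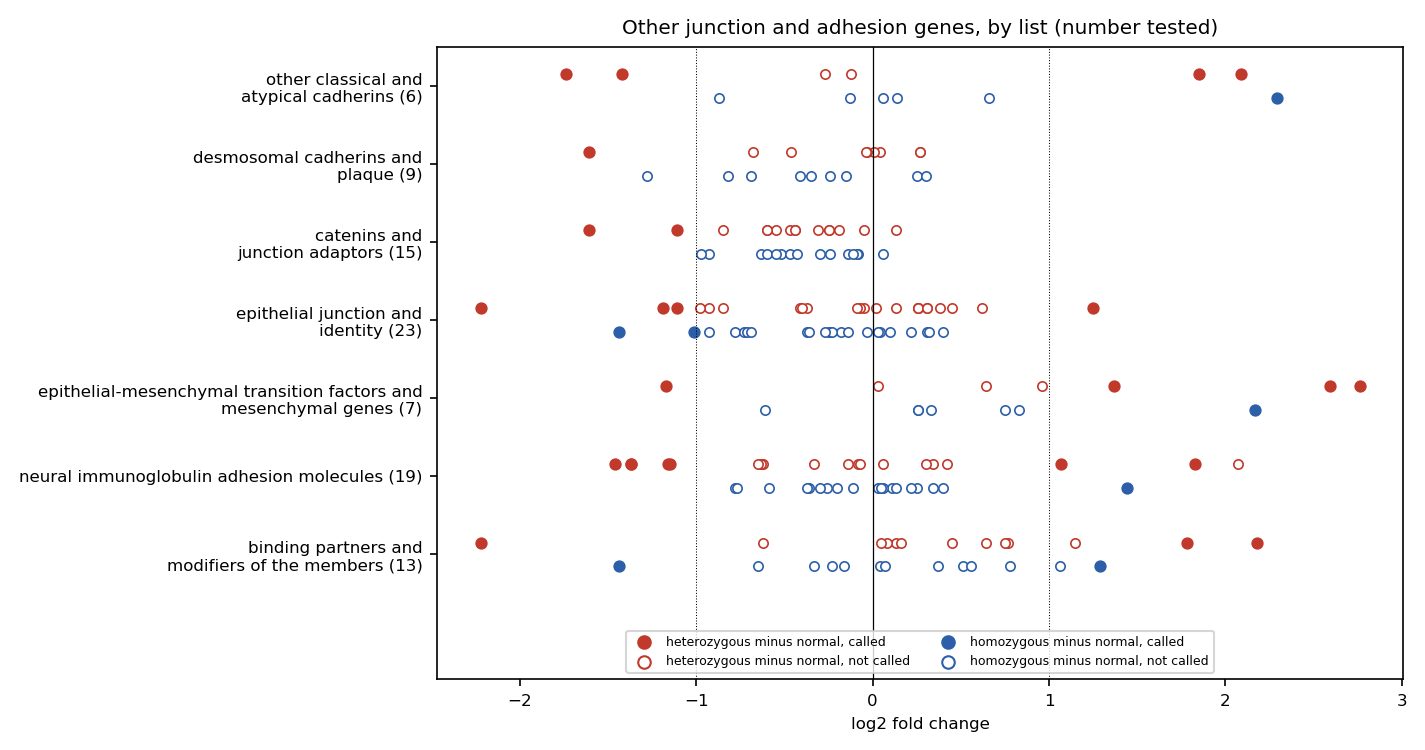
Log2 fold changes (x axis) of every tested gene in 7 lists of other junction and adhesion genes, heterozygous minus normal in red and homozygous minus normal in blue; filled points were called and dotted lines mark a 2-fold difference. Both comparisons use the same 2 normal samples. Snai2 and Cdh10 lie far to the right in both, and Cldn7 far to the left.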

How the data were processed

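The deposited values are log2 signals from RMA (robust multichip average), for which the authors' labels name Affymetrix Expression Console. The table held 45101 probe sets on 12 arrays. Of these 64 were controls, 34945 named 1 gene, 932 several and 9160 none. Annotation was the platform's, and 34741 of the gene IDs of those 34945 probe sets were in RefSeq. Neither scanner files nor detection calls entered the work. Groups came from the labels. Tumor arrays whose values differed over 2-fold on at most 10 probe sets, with a correlation above that of the 2 normal arrays (0.9929), were averaged, which gave 7 samples. A probe set was tested if it reached 5.74, the median over the whole table, on at least 2 arrays. This left 24486 probe sets and 12316 of 18193 genes. limma 3.58.1 in R 4.3.3 fitted the 3 groups together (4 residual degrees of freedom), with Benjamini-Hochberg adjustment over all tested probe sets. A call needed an adjusted p under 0.05 and a fold over 2, the thresholds of the study's methods. The fit was tested on simulated data. The number of arrays limits precision.

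The 10 genes, the adhesion lists and the marker lists were chosen with earlier results of these data known. Text names the 10 genes, Pomc and Xist, from each list up to 4 genes of largest change among those called in both genotypes (or, where fewer than 2 were, in heterozygous tumors), and for each called gene the 2 tested genes of highest Pearson r. Ctnnb1, Ctnna1, Gh, Prl, Cga, Slc16a3, Slc16a7, Bsg, Negr1 and Iglon5 were named after their values were seen. Alternatives were the 12 arrays unpaired, the pair as a random block, the replicate number as a block, other filters, centring on housekeeping genes, repeated quantile normalization, Xist as a covariate, gene means, a trended robust variance, the methods' one-way test and each sample left out. The 2 that leave out heterozygous samples by Xist level were chosen after seeing the data.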

Additional observations from a re-analysis of the deposited data

Results flagged for a closer look

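Cdh11 in heterozygous tumors had 1 sample far from the others. Sample 3-4 was at 8.31 and the other 3 lay between 7.32 and 7.40, a gap of 0.919 of the group's whole range. Such a gap is past the 95% critical value for 4 samples. Chance gives about 1 such value in 20 groups, and 21 probe sets were examined this way.

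The Ntm probe set 1458492_x_at differed between the tumor genotypes by a test of the difference itself, homozygous minus heterozygous 1.54 (limma, adjusted p = 0.00957). All 4 heterozygous samples were below both normal samples and the homozygous sample was above them. The homozygous group is 1 sample, and the probe set passed the filter on low values through its 2 arrays alone. With no such filter the adjusted p was 0.00719, and with the pair as a random block it was 0.184.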

How the results depend on the processing

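Over the 63 results of the 21 tested probe sets in 3 comparisons, the 19 alternatives gave 1155 values, of which 1061 kept direction and call, 14 lost a call, 51 gained one and 29 changed sign. None of the 29 was a called value, and the cause was not tested for any. With 1 homozygous sample, depth of replication limits the 2 comparisons that use it most.

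In heterozygous minus normal, the count of all genes called stayed within 1.5 times 1241, and that of the 10 genes ranged from 1 to 3 as single samples were left out. In homozygous minus normal, 338 genes were called, and 692 with 12 separate arrays, 548 with the pair as a random block, 725 by the methods' one-way test and 34 to 387 as single samples were left out (35 without normal sample 1, 34 without normal sample 2, 209 without heterozygous sample 3-4). Of the 10 genes 0 were called, and 1 (Ntm) with gene means. The Ntm probe sets in that mean passed the filter through the homozygous arrays alone, here and in the next comparison. In homozygous minus heterozygous, 36 genes were called, and 305 with 12 separate arrays, 142 with the random block, 350 by the one-way test, 9 with the stricter filter, 229 without the heterozygous samples of high Xist, 18 without those of low Xist and 18 to 146 as single samples were left out (146 without sample 7-8, 18 without normal sample 1 or 2, 19 without sample 3-4). Of the 10 genes 0 were called there, and 3 with 12 separate arrays and by the one-way test (Cdh13, Ntm, Emb), 1 with the random block (Cdh13), 1 with gene means (Ntm), 2 without the samples of high Xist (Cdh13, Ntm) and 0 to 1 as single samples were left out (Cdh13 without sample 7-8).

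The replicate numbers of the labels do not pair the samples. Deviations of same-numbered arrays correlated at -0.01 to 0.033 between groups, and tumor arrays 1 and 2 are near-identical. With the replicate number as a block (arrays 1 and 2 of each group), 817 genes were called in homozygous minus normal and 738 in homozygous minus heterozygous, and of the 10 genes 1 (Cdh11) and 4 (Cdh1, Cdh13, Ntm, Emb). This block changed the sign of Cdh4 1449422_at (0.05) and Epcam 1447899_x_at (-0.07) in homozygous minus heterozygous.

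The other changes of sign were these. With Xist as a covariate, Ncam1 1439556_at gave -0.48 in heterozygous minus normal, Cdh2 gave -0.41, Cdh4 -0.36, Cdh4 1449422_at -0.10 and Cdh13 1423551_at 0.29 in homozygous minus normal, and Cdh2 gave -0.01 and Cdh2 1449244_at -0.04 in homozygous minus heterozygous. With gene means, Cdh2 gave -0.05 and Ncam1 0.14 in homozygous minus normal. Repeated quantile normalization gave -0.02 for Ncam1 1439556_at in heterozygous minus normal, and housekeeping centring -0.05 for Epcam 1447899_x_at in homozygous minus heterozygous. Without the samples of high Xist, Ncam1 1439556_at gave -0.50 in heterozygous minus normal and 0.46 in homozygous minus heterozygous, and Epcam 1447899_x_at gave -0.01 in the latter. Without those of low Xist, Cdh2 gave 0.05 in heterozygous minus normal and Cdh2 1449244_at -0.03 in homozygous minus heterozygous. With single samples left out, heterozygous minus normal ran from -0.01 to 0.29 for Ncam1 and from -0.17 to 0.42 for Ncam1 1439556_at. Homozygous minus normal ran from -0.10 to 0.20 for Cdh2, -0.40 to 0.75 for Cdh13 1454015_a_at and -0.24 to 0.16 for Ncam1 1439556_at. Homozygous minus heterozygous ran from -0.06 to 0.05 for Epcam 1447899_x_at and from -0.46 to 0.12 for Ncam1 1439556_at.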
